A study of Homo sapiens with 44 samples.

Results

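Chromatin accessibility after interleukin-6 (IL-6) was compared with accessibility in unstimulated cells of Ccd18-Co, a fibroblast line from human colon grown in culture. Of 44 libraries of bulk ATAC-seq (in which a transposase cuts and tags open chromatin), 7 entered this comparison, namely IL6 replicates 1 to 3 and 4 unstimulated libraries. IL-6 was given at 10 ng/ml in serum-free medium, and the study's methods give 24 h of stimulation after 72 h without serum. Unstimulated cells of the same line received no cytokine, and the labels do not say whether replicates were separate cultures, so the spread between them may be technical. The other libraries belonged to 9 further cytokine groups of 4, each at 10 ng/ml apart from IL-1β at 0.1 ng/ml. They entered the fit to give a common estimate of the spread.

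The 3 IL-6 libraries were chosen on measured values. The library labelled IL6 replicate 4 was the shallowest of all, with 148.8 Mb of summed coverage, and the next shallowest library of the series held 239.8 Mb. It also lay nearest to the IL-13 group (root mean square log2 distance 0.825, against 0.842 to the other IL-6 libraries and 0.849 to the unstimulated group). It was therefore left out of the main comparison and is given beside it. The retained IL-6 libraries held 426.2, 744.9 and 428.4 Mb, and the unstimulated libraries between 328.6 and 524.4 Mb. Coverage was scaled per Mb of each library's total and corrected for composition, and a level below is coverage per Mb in a 500-base peak (hg38 coordinates). In the shallow IL6 replicate 4, a single read of 75 bases was worth 0.504 per Mb before division by the composition factor of 1.078.

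IL-6 binds the receptor subunit IL6R, and the complex pairs with IL6ST (gp130), the subunit that all cytokines of this family share. Kinases of the JAK family on IL6ST phosphorylate STAT3, which enters the nucleus and binds DNA at motifs of the form TTCNNNGAA, and SOCS proteins induced in this way damp the signal. Cells with little surface IL6R can answer IL-6 only with soluble IL6R, whereas oncostatin M (OSM) uses IL6ST together with OSMR, a receptor that fibroblasts carry. Immediate early genes such as FOS, FOSB and NR4A1 are transcribed within minutes of serum, growth factors and many cytokines, and FOS and FOSB pair with JUN proteins to form AP-1.

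Few peaks differed. Of 407163 peaks tested, 20 were called at an adjusted p-value under 0.05 (0.00491%), with 13 raised (0.00319%) and 7 lowered (0.00172%) in IL-6 libraries. All 7 lowered peaks lay inside or just past the 3′ end of the immediate early genes FOSB, FOS, NR4A1 and PTGS2. In 5 of them the IL-6 libraries had the lowest mean of all 11 groups. The unstimulated group ranked 8 or 9 from the lowest in all 7, so most other cytokine groups also lay below it. The lowered peaks were called for low IL-6 levels, so these ranks are a description. The 13 raised peaks all had their centres within 1 kb of an annotated start site, as did 2 of the 7 lowered peaks and 19.5% of all tested peaks. The raised peaks were also rich in G and C. At an unadjusted p-value under 0.05 there were 22300 peaks (5.48%), 11059 higher and 11241 lower with IL-6. Bulk values cannot tell a change in the share of nuclei that are open at a peak from a change in every nucleus.

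The calls rested on small margins. None of the 20 was called after centring each library within bins of peak GC content (21423 peaks at an unadjusted p-value under 0.05), and none without IL6 replicate 2 (23165) or without unstimulated replicate 4 (22449). Leaving out IL6 replicate 1 gave 4 calls, which were 4 of the 20. Leaving out IL6 replicate 3 gave 1 call, which was none of the 20. Without unstimulated replicate 1 there were 19 calls, 11 of them among the 20, without replicate 2 there were 10 (10 of the 20), and without replicate 3 there were 11 (9 of the 20). Keeping IL6 replicate 4 in the group gave 267 calls, of which 98 were raised, and 19 of the 20 were among them. With the libraries of the 2 groups alone, 96 peaks were called, 75 of them raised. The split of the main calls was 65% raised, and under loess offsets it was 14 raised and 12 lowered. In each of the 22 alternatives that gave a value, all 20 peaks kept their direction. The groups did not overlap at any of the 20 in the main fit, so most alternatives could hardly change a direction.

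Stretches of 4 called peaks are shown because they hold the contrast between the lowered and the raised calls. Each is 200 bases of the hg38 plus strand, outside annotated UTRs, and capitals mark a match to TTCNNNGAA, the STAT motif. The FOSB and FOS stretches are central in their peaks, but those at NR4A1 and GPX4 are not. The NR4A1 stretch begins at the edge of its peak, so the place of the match in the stretch is not its place in the peak.
FOSB, past the gene's end, chr19:45475235-45475434: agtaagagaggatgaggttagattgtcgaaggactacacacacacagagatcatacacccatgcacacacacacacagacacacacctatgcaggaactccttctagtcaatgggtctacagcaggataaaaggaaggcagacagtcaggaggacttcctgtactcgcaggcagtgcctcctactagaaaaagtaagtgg
FOS, past the gene's end, chr14:75283383-75283582: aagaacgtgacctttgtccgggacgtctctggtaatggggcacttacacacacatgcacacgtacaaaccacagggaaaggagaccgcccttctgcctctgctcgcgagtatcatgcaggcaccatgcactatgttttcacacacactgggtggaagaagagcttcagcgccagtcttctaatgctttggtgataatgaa
NR4A1, past the gene's end, chr12:52060217-52060416: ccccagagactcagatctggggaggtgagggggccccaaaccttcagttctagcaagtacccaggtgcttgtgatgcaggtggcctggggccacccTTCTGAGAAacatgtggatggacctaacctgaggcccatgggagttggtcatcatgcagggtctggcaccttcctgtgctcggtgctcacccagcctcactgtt
GPX4, in an intron near a start site, chr19:1104450-1104649: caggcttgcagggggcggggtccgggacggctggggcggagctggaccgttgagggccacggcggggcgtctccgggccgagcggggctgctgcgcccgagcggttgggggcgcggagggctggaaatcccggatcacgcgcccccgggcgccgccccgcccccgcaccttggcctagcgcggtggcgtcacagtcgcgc
The FOSB stretch had 48% G or C, the FOS stretch 51% and the NR4A1 stretch 59%, against 79.5% in the raised peak at GPX4. TTCNNNGAA occurred in 1 of the 7 lowered peaks (that at NR4A1) and in 1 of the 13 raised peaks (that at GRK5), and in 17.2% of all tested peaks. The AP-1 form TGANTCA occurred in 1 lowered and no raised peak, against 25.7% of all tested peaks, and TGACGTCA in 1 lowered and 1 raised peak, against 0.531%. The forms read the same on both strands, no match to a form can lie wholly inside a match to another, and a match says nothing of binding.

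FOSB, which encodes an AP-1 subunit, held 4 of the 7 lowered peaks. They are named here by the distance of the centre from the FOSB gene start on chromosome 19. The peak at 7.3 kb (chr19:45475084-45475584) overlapped the last bases of FOSB and lay within an intron of ERCC1, a DNA repair gene that runs in the opposite direction. Its level was 1.09, 1.19 and 0.892 in IL6 replicates 1 to 3, and 3.87, 4.98, 3.48 and 4.17 in the unstimulated libraries. Every IL-6 library lay below every unstimulated library, with a log2 difference of -1.57 (SE 0.29, limma adjusted p = 0.0138). IL6 replicate 4 had 4.21, which is inside the unstimulated range, and with it in the group the adjusted p was 0.0558.

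The FOSB peak at 4.8 kb (chr19:45472583-45473083), in an exon, had 1.82, 1.37 and 0.849 with IL-6, and 4.68, 2.60, 5.35 and 5.49 without. The groups did not overlap (log2 difference -1.43, SE 0.28, limma adjusted p = 0.0188). Replicate 4, at 0.499, was lower still, but that level is near the worth of a single read in its library. The peak at 5.5 kb (chr19:45473237-45473737), in a UTR, had 0.650, 1.12 and 0.378 with IL-6, and 2.91, 2.11, 5.64 and 2.32 without. Those IL-6 levels amount to 3.72, 11.2 and 2.15 reads of 75 bases, so the estimate (-1.58, SE 0.31, limma adjusted p = 0.0226) rests on little coverage. The peak at 2.4 kb (chr19:45470151-45470651) had 5.44, 4.17 and 5.18 with IL-6, against 10.8, 9.61, 10.5 and 9.61, with replicate 4 at 6.36. It carried the most coverage of the 4, and its log2 difference was -0.98 (SE 0.20, limma adjusted p = 0.0391).

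The lower level at FOSB was not limited to the called peaks. All 20 tested peaks from 2 kb before the gene to 4 kb past its end had a negative difference, as did 51.6% of all tested peaks. From the called peak at 2.4 kb to that at 7.3 kb lay 8 peaks in all, 4 of them the calls, with log2 differences from -1.58 to -0.89. All 8 were lower at an unadjusted p-value under 0.05, against 2.76% of all tested peaks, and 7 showed no overlap between the groups. Among all 407163 tested peaks, 14116 were separated with IL-6 lower. The calls set the bounds of this stretch, so its counts and ranks are a description. Averaged over these 8 peaks, the level was 1.99, 1.92 and 1.87 in the IL-6 libraries and 2.92 in replicate 4. The unstimulated libraries had 5.27, 4.52, 5.39 and 4.39. The IL-6 group was the lowest of the 11 groups in 7 of the 8 peaks. Next to it came IL-22 and IL-13, with library means from 2.53 to 3.08 and from 2.13 to 3.15. Around the FOSB gene start no peak was called. The called peak at 2.4 kb, however, had its centre 136 bases from another annotated FOSB start. The peak at -0.3 kb had 4.97 with IL-6 and 7.23 without (log2 difference -0.50, limma adjusted p = 0.880), and that at 0.6 kb had 3.23 and 5.18 (-0.59, limma adjusted p = 0.862), with no overlap between the groups in either. At 1.3 kb the levels were 19.7 and 21.8 (-0.14, limma adjusted p = 0.979).

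**Figure D1:**
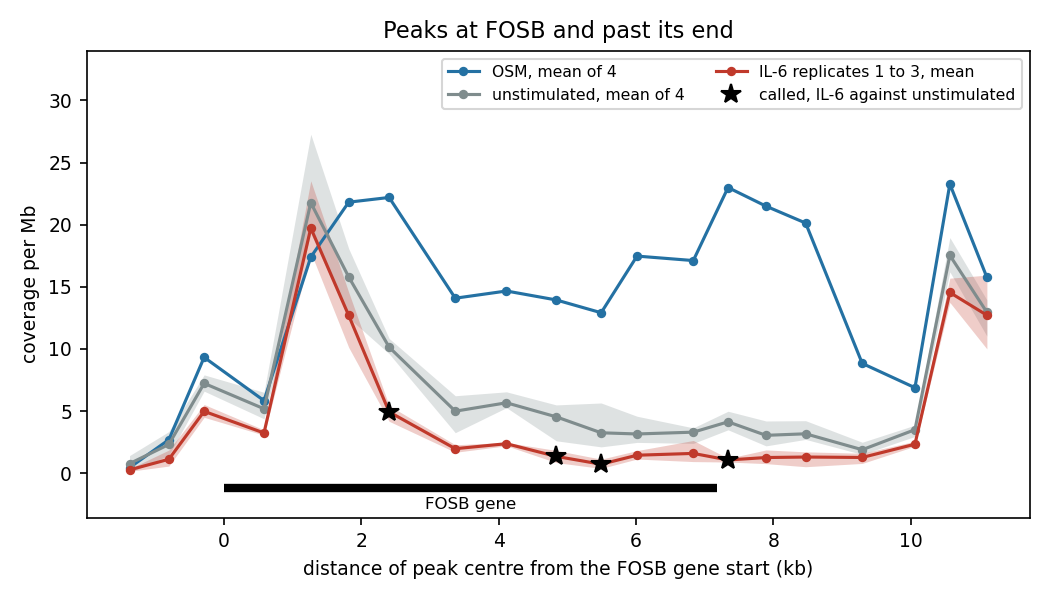
Coverage per Mb (vertical axis) in the 20 tested peaks against the distance of the peak centre from the FOSB gene start (horizontal axis, kb), as group means with the range of the libraries shaded for IL-6 replicates 1 to 3 and unstimulated. From 2.4 to 7.3 kb the IL-6 line lies under the unstimulated line and the OSM line lies above both, while at 1.3 kb the 3 means lie between 17.4 and 21.8.

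FOS, the founding AP-1 subunit, had 1 lowered peak, on chromosome 14 with its start 1003 bases past the gene's end (chr14:75283232-75283732). Levels were 8.63, 4.67 and 7.23 with IL-6 and 11.4, 16.3, 14.6 and 12.4 without, and replicate 4 had 5.70. All 4 IL-6 labelled libraries lay below the unstimulated ones (log2 difference -0.97, SE 0.19, limma adjusted p = 0.0197). Among 11 groups only TNF had a lower mean at this peak, 5.91 against 6.84 for IL-6. NR4A1, an orphan nuclear receptor, had a lowered peak 709 bases past its end (chr12:52060215-52060715, assigned to ATG101 in the deposited table). Its level was 1.90, 2.46 and 3.30 with IL-6, 1.55 in replicate 4, and 4.61, 5.64, 9.10 and 8.56 without. The groups were separate, and the log2 difference was -1.27 (SE 0.25, limma adjusted p = 0.0188).

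PTGS2 encodes the inducible cyclooxygenase that makes prostaglandins. Its lowered peak lay 219 bases past the end of the gene (chr1:186671072-186671572). Levels were 4.10, 4.62 and 3.95 with IL-6, 2.70 in replicate 4, and 5.92, 12.2, 11.2 and 10.9 without. Unstimulated replicate 1 stood nearest to the IL-6 libraries, and the log2 difference was -1.11 (SE 0.23, limma adjusted p = 0.0343). This peak varied widely between groups, from a mean of 1.11 with IL-13 and 3.74 with TGF-β1 to 34.4 with IL-1β.

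Peaks along other immediate early genes were counted from the gene's start to 2 kb past its end, for 15 genes listed after the called peaks were seen. Of 237 peaks, 39 were lower with IL-6 at an unadjusted p-value under 0.05 and 4 higher, a share of 16.5% lower against 2.76% of all tested peaks. FOSB gave 11 of those 39 (of 13 peaks), FOS 6 (of 8), NR4A1 19 (of 54) and PTGS2 3 (of 10). ATF3, DUSP1, EGR1, EGR2, EGR3, IER2, JUN, JUNB, NR4A2, NR4A3 and ZFP36 gave 0. The median log2 difference was -1.03 over the FOSB peaks, -0.69 over the FOS peaks, -0.34 over the NR4A1 peaks and -0.39 over the PTGS2 peaks. For EGR1, a zinc finger factor, it was -0.01, and for JUN, the partner of FOS, -0.08. Over all tested peaks it was -0.01. The list was drawn up from the calls, so these shares describe the genes and carry no test.

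The raised peaks were of another kind. Their GC content ran from 73.4% to 82% with a median of 76.4%, against 37% to 62% in the lowered peaks and a median of 45% over all tested peaks. The deposited table placed 6 of the 13 in promoters (46.2%), against 7.15% of all tested peaks. They had a median level of 11.5 per Mb over all libraries, against 0.773 for all peaks. The unstimulated group had the lowest mean of the 11 groups in 12 of these 13 peaks and the next to lowest in the other. In those 12 peaks every cytokine group, OSM included, thus lay above the level seen without cytokine. The peaks were called with unstimulated libraries below IL-6, which favours that rank, so it is a description. IL-6 was the highest group in 3 of the 13.

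Among the raised peaks, SOCS1 encodes an inhibitor of JAK kinases and thereby of IL-6 signalling. Its start-site peak (chr16:11255717-11256217, in the UTR) had 23.3, 20.7 and 25.3 with IL-6, 25.7 in replicate 4, and 13.8, 15.3, 14.3 and 10.0 without. The groups did not overlap (log2 difference 0.78, SE 0.15, limma adjusted p = 0.0200). The mean was 28.6 with IL-13, 24.2 with IL-22 and with OSM, and 10.6 with TGF-β1, the only group under the unstimulated mean of 13.3 ± 2.32 (SD, n = 4). After GC centring the SOCS1 difference was 0.58 (limma adjusted p = 0.546).

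SRF, the serum response factor that drives transcription of FOS and of actin genes, had a raised peak in its UTR (chr6:43171388-43171888). It had 11.5, 11.6 and 12.1 with IL-6, 9.05 in replicate 4, and 6.66, 5.78, 3.94 and 5.16 without (log2 difference 1.07, SE 0.21, limma adjusted p = 0.0163). GPX4, which reduces lipid peroxides and protects from ferroptosis, had 14.2, 12.0 and 15.3 with IL-6 and 7.85, 5.26, 6.44 and 6.50 without in the peak whose sequence is printed above (log2 difference 1.04, SE 0.19, limma adjusted p = 0.0138). In both peaks the 3 IL-6 libraries and replicate 4 lay above every unstimulated library.

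MAP3K14 encodes NIK, the kinase of the noncanonical NF-κB pathway, and its start-site peak had a mean of 18.4 ± 1.34 with IL-6 (n = 3) and 10.5 ± 2.48 without (SD, n = 4; adjusted p = 0.0352). PIK3R1 encodes a regulatory subunit of phosphoinositide kinase, and its peak had 38.8 ± 3.42 against 25.2 ± 2.47 (adjusted p = 0.0163). GRK5, a kinase of activated G protein-coupled receptors, had 12.8 ± 1.29 against 6.19 ± 1.83 (adjusted p = 0.0163). ARHGAP20 had 15.9 ± 3.17 against 8.09 ± 1.17 (adjusted p = 0.0138). The remaining raised peaks were at LOXL1-AS1 (an RNA antisense to a collagen crosslinking enzyme), IBA57 (mitochondrial iron-sulfur assembly), CAPRIN2, LRP5L, MIR550A3 and DENND6B. Over all 13, the log2 differences ran from 0.62 to 1.29, and no library of either group crossed into the range of the other. Among all tested peaks, 6.63% were separated in this way (12892 with IL-6 higher, 14116 with IL-6 lower). Replicate 4 lay above the unstimulated range in 13 of 13 raised peaks. Those peaks were called for low unstimulated levels, so the place of replicate 4 is a description.

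**Figure D2:**
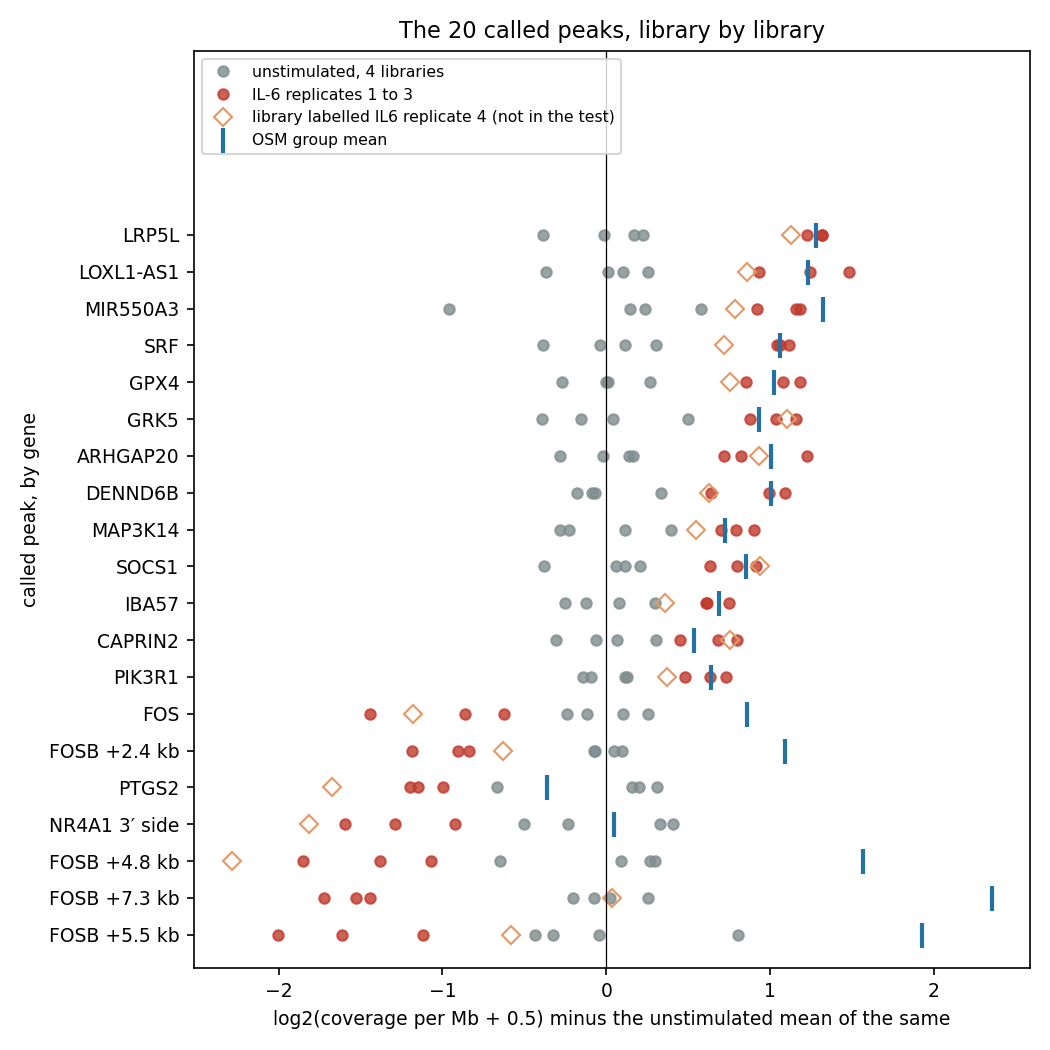
The 20 called peaks (rows), with the log2 level of each library minus the unstimulated mean on the horizontal axis. Grey points are the unstimulated libraries, red points IL-6 replicates 1 to 3, open diamonds the library labelled IL6 replicate 4 and blue ticks the OSM mean, which lies with IL-6 in the 13 raised peaks and on the other side of 0 at FOS and FOSB.

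GC content moved with the raised calls. In the 9757 tested peaks of at least 70% GC, the IL-6 libraries deviated from the mean library by 0.06, 0.08 and 0.06 (median log2), and the unstimulated libraries by -0.14 to -0.09. Replicate 4 deviated by -0.04. The median difference between IL-6 and unstimulated was 0.18 in this class, 0.02 from 60% to 70%, 0.01 from 50% to 60%, -0.02 from 40% to 50% and -0.05 below 40%. All 13 raised peaks fell into the highest class, and none of the 7 lowered peaks did. After GC centring no lowered and no raised peak was called. The FOSB peaks at 2.4, 4.8, 5.5 and 7.3 kb then had log2 differences of -0.98, -1.45, -1.58 and -1.55 (limma adjusted p = 0.196, 0.0827, 0.0950 and 0.0784). NR4A1 had -1.28, FOS -0.93 and PTGS2 -1.06 (limma adjusted p = 0.0827, 0.207 and 0.254). Of the raised peaks, LOXL1-AS1 had 1.02 (limma adjusted p = 0.254), GPX4 went from 1.04 to 0.83 (limma adjusted p = 0.297) and PIK3R1 from 0.62 to 0.41 (limma adjusted p = 0.627). The part of GC content in the raised calls was not tested further.

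**Figure D3:**
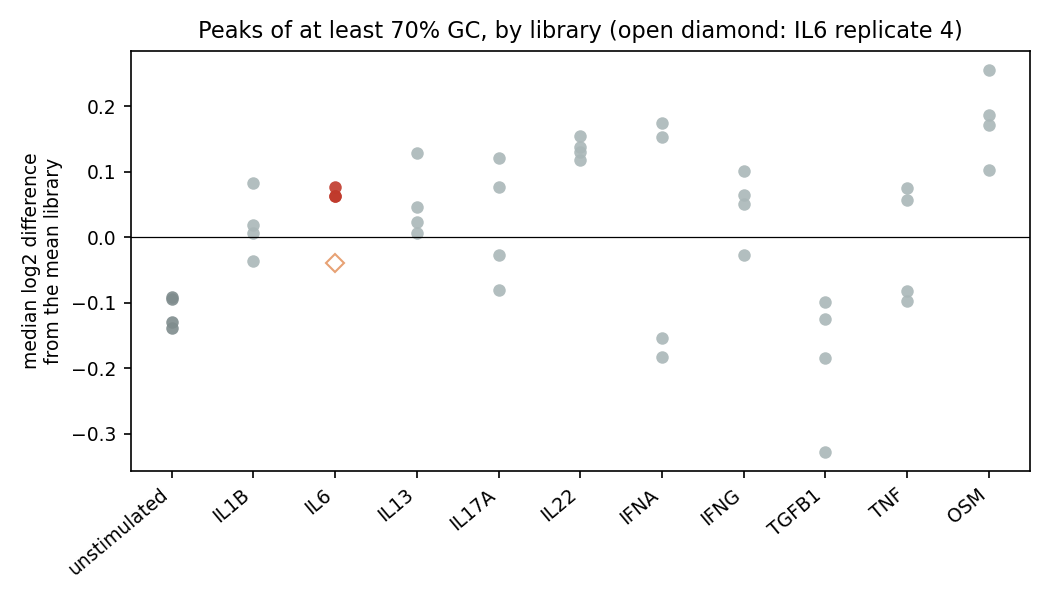
Median log2 difference from the mean library (vertical axis) over peaks of at least 70% GC, 1 point per library in each of the 11 groups. The 4 unstimulated libraries lie below 0, from -0.14 to -0.09, and IL-6 replicates 1 to 3 lie at 0.06 to 0.08.

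Among the peaks just past the threshold were those at UVSSA, CTBP2 and AREG (adjusted p = 0.0646 each). The distal peak assigned to AREG, an epidermal growth factor family ligand, had 4.74 ± 0.181 with IL-6 (n = 3) and 10.2 ± 2.14 without (SD, n = 4). Just inside the threshold stood DENND6B, a Rab exchange factor, with 12.9 ± 2.12 against 6.66 ± 1.20 (adjusted p = 0.0466).

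The signalling genes were examined at their start-site peak, the tested peak nearest to any annotated transcript start of the gene, within 1 kb. A gene can have several annotated starts, so this peak need not lie at its main promoter. All 13 genes of the receptor and signal chain had such a peak, and 0 of 13 were called by limma, with 2 higher and 0 lower at an unadjusted p-value under 0.05. Their median log2 difference was 0.10, against -0.01 over all tested peaks and 0.03 over promoter peaks. Of all 29105 promoter peaks, 5.07% were higher and 1.74% lower at that unadjusted p-value, the shares to set beside the counts of each list. The median GC content of promoter peaks was 55.8%, against 68.4% in this list and 71.5% in the feedback list. It was 67.7% in the list of family ligands and receptors and 66.5% in that of STAT3 targets. The promoter shares are thus not matched to these lists for GC content. IL6R, the binding subunit, had 28.9 with IL-6 and 25.5 without (log2 difference 0.19, SE 0.13), and IL6ST had 31.3 ± 3.08 (n = 3) and 24.9 ± 5.21 (SD, n = 4; difference 0.34, adjusted p = 0.729). Both start sites were thus open in unstimulated cells. JAK1, the main kinase on IL6ST, had 19.3, 16.1 and 18.1 with IL-6, 18.0 in replicate 4, and 10.0, 10.6, 9.75 and 9.97 without. Those groups were well apart, at a GC content of 75.4%, but the peak missed the threshold (0.79, SE 0.18, limma adjusted p = 0.105). In the 22 alternative settings it was called in 3, as was the start-site peak of CEBPD, and that of ACTA2 (assigned to ACTA2-AS1 in the deposited table) in 1.

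At their start-site peaks the other kinases and STATs differed little or were at low levels. JAK2 had 37.8 with IL-6 and 35.1 without. TYK2, a further JAK, had 0.990 and 1.07 at a peak that the deposited table assigns to ICAM3. STAT3 had 1.41 and 0.700 at a peak assigned to STAT5A, and STAT5A had 0.810 and 0.639 at a peak classed as intronic. These peaks may lie away from the main promoters of TYK2, STAT3 and STAT5A, which were then not read. STAT5B had 3.72 and 2.93. The phosphatase PTPN11 had 13.5 and 11.1, the adaptor GAB1 7.25 and 8.28, and the shedding proteases ADAM10 35.9 and 33.8 and ADAM17 4.57 and 5.48. Adjusted p-values of these 9 genes were all above 0.9. The PTPN11 peak is assigned to RPL6 in the deposited table and lies nearer to a start of that gene.

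Of the 8 feedback genes, SOCS1 was called and the other 7 were not (median log2 difference over the list 0.10). At an unadjusted p-value under 0.05, 2 of the 8 were higher and 0 lower. SOCS3, the main inhibitor of IL6ST signalling and a direct STAT3 target, had 17.8, 23.8 and 23.6 with IL-6 and 16.8 in replicate 4. The unstimulated libraries had 19.9, 17.1, 16.4 and 12.4, so the ranges overlapped (0.40, SE 0.15, limma adjusted p = 0.768). With OSM the SOCS3 start site stood at 33.8, and IL-6 was lower than OSM there (-0.63, limma adjusted p = 0.00611). SOCS2 had 20.3 with IL-6 and 19.3 without, CISH 8.60 and 8.53, PIAS1 11.5 and 10.6, PIAS3 22.6 and 22.1, PTPN1 40.4 and 36.9, and PTPN2 11.8 and 12.9. These are inhibitors of STAT signalling, and their differences ran from -0.14 to 0.13. The CISH peak is assigned to MAPKAPK3 in the deposited table and lies nearer to a start of that gene.

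All peaks that the deposited table assigns to central genes were then counted. SOCS3 had 48, with 0 called against unstimulated and a lowest limma adjusted p of 0.768. Of the 48, 16 were called lower with IL-6 than with OSM, against 5237 of all 407163 tested peaks. STAT3 had 42 peaks (lowest adjusted p 0.647), IL6R 34 (0.747), BCL3, an atypical IκB protein and STAT3 target, 30 (0.896), IL6ST 28 (0.315) and JUNB 4 (0.963). None of these peaks was called against unstimulated. At an unadjusted p-value under 0.05, SOCS3 had 2 peaks higher and 3 lower, STAT3 2 and 4, IL6ST 2 and 0, IL6R 0 and 1, BCL3 0 and 1, and JUNB 0 and 0.

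The wider lists gave no call by limma. Among other ligands and receptors of the family, 14 of 15 genes had a start-site peak, with a median difference of 0.08 and 2 higher at an unadjusted p-value under 0.05. LIFR had 6.52 ± 0.339 with IL-6 (n = 3) and 4.13 ± 1.41 without (SD, n = 4; adjusted p = 0.732) and OSMR 32.1 ± 3.80 and 26.7 ± 4.51 (adjusted p = 0.892). Of 24 genes known as STAT3 targets, 0 were called, 4 were higher and 0 lower at an unadjusted p-value under 0.05, and the median was 0.09. CEBPD, a transcription factor of the acute phase response, came closest, with 15.2, 19.0 and 14.9 with IL-6, 18.1 in replicate 4, and 10.8, 9.46, 7.54 and 8.82 without (0.81, SE 0.18, limma adjusted p = 0.0801, GC content 78.8%). FOSL2 and KLF4 followed, with log2 differences of 0.26 and 0.45 and limma adjusted p-values of 0.815 and 0.852.

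Of 17 acute phase genes, which are liver genes that IL-6 is best known for inducing, 10 had a start-site peak. Their median difference was -0.17, none was called or had an unadjusted p-value under 0.05, and CRP, HP, FGA, FGB, FGG, HAMP and ORM1 had no peak within 1 kb. SERPINA1 (0.349 with IL-6 and 0.866 without), CP (18.3 and 20.6) and C3 (2.32 and 3.08) had the lowest p-values, and their adjusted p-values were at or above 0.96. Among 23 genes of inflammatory fibroblasts the median was 0.03 and 0 were called, with 1 higher and 2 lower at an unadjusted p-value under 0.05. CXCL8, a neutrophil attractant, had 0.904, 1.07 and 0.490 with IL-6, 1.38 in replicate 4, and 3.06, 2.10, 2.10 and 1.79 without. Those ranges did not overlap, but the limma adjusted p was 0.421 (-1.07, SE 0.31). RELB had 2.82 with IL-6 and 4.87 without (adjusted p = 0.775), and the protease gene MMP10 had 8.16 and 5.55 (adjusted p = 0.853).

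Of 14 matrix and contractile genes 0 were called and 1 was higher at an unadjusted p-value under 0.05, with a median of 0.10. ACTA2, the smooth muscle actin of myofibroblasts, had 26.1 ± 1.01 with IL-6 (n = 3) and 19.4 ± 5.23 without (SD, n = 4; adjusted p = 0.647), and 43.1 in replicate 4. MYLK had 52.4 and 45.6, and LOX 2.57 and 3.92 (adjusted p-values 0.919 and 0.937). Cell type markers were read in the same peaks. All 12 fibroblast genes had a peak, from 0.990 for PDGFRA to 9.09 for COL1A1 in unstimulated cells, with a median of 4.99. Of 5 endothelial genes the median was 0.569, and of 9 epithelial genes 5 had no peak and the other 4 had a median of 2.58. Of 8 immune genes 4 had no peak, while CD68 had 26.0 and PTPRC 8.31, so openness at a start site does not by itself mark a cell type here. The deposited table assigns the CD68 peak to SNORA67. The PTPRC peak is intronic, 639 bases from the start used, so neither need be the gene's main promoter. None of these marker peaks was called.

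**Figure D4:**
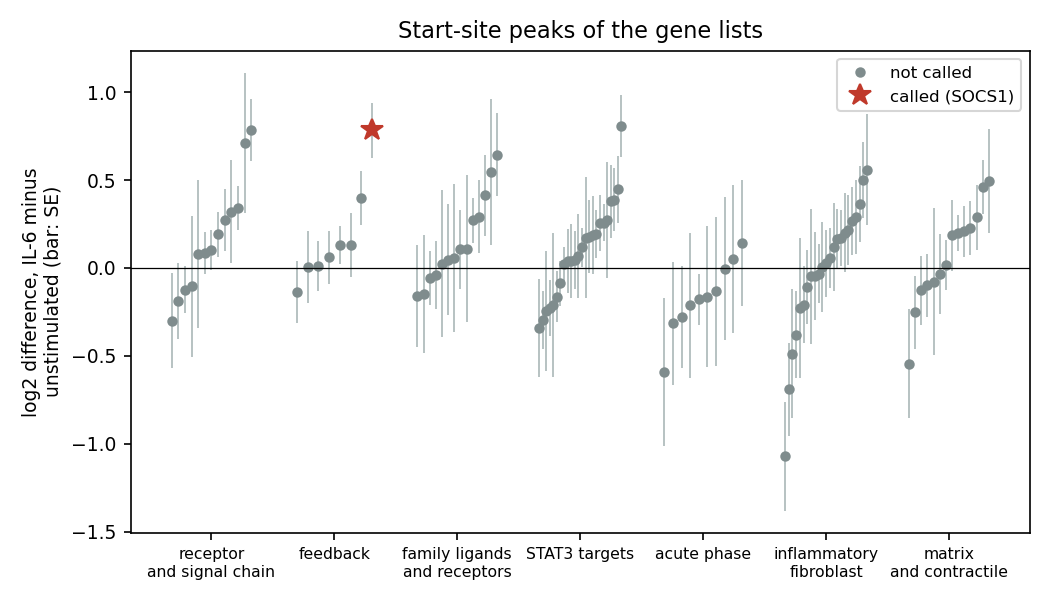
Log2 difference between IL-6 and unstimulated (vertical axis, bars are 1 SE) at the start-site peak of each gene, grouped by list and sorted within it. The called gene is SOCS1 at 0.78, and the medians of the lists drawn lie between -0.17 and 0.10.

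OSM acts through the same subunit IL6ST, and the contrast of IL-6 with OSM compared no unstimulated library, although those libraries entered the shared estimate of the spread. It called 6922 peaks (1.7%), 5237 lower and 1685 higher with IL-6. The median difference over all tested peaks was 0.13, which loess offsets brought to -0.00, and the split was then 3265 lower and 2385 higher. With library totals it was 3469 lower and 2064 higher, and after GC centring 10499 and 1006. Of the 20 peaks called against unstimulated, 6 were also called against OSM, and all 6 were lowered peaks. The same 3 IL-6 libraries entered both contrasts and these peaks were called for low IL-6 levels, so this count is a description. At FOSB the OSM means were 22.2 at 2.4 kb, 13.9 at 4.8 kb, 12.9 at 5.5 kb and 23.0 at 7.3 kb. IL-6 lay lower than OSM there by log2 differences of -2.07, -2.99, -3.51 and -3.90, with limma adjusted p-values of 8.26e-18, 3.38e-19, 5.93e-21 and 1.34e-29.

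The unstimulated level of these 4 peaks thus lay between the 2 cytokines. The FOS peak had 25.0 with OSM against 6.84 with IL-6 (-1.83, limma adjusted p = 1.51e-15). At the NR4A1 peak OSM had 6.96, close to the unstimulated mean of 6.98 (IL-6 minus OSM -1.31, limma adjusted p = 9.28e-05). At the PTGS2 peak OSM had 7.43, and the difference of -0.74 missed the threshold (limma adjusted p = 0.0649). None of the 13 raised peaks was called between IL-6 and OSM, with log2 differences from -0.24 at MIR550A3 to 0.13 at CAPRIN2.

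Response sets were used to ask where IL-6 libraries stood at peaks that other cytokines opened. Each set held the peaks raised by 1 cytokine over IL-17A (adjusted p-value under 0.05 and a log2 difference of at least 1), so that neither IL-6 nor unstimulated libraries were compared in choosing them, although both entered the shared estimate of the spread. The OSM set had 3995 peaks (0.981% of those tested), the IL-13 set 2487 (0.611%), the TNF set 6426 (1.58%) and the IFNγ set 5102 (1.25%). In the OSM set, 0 peaks were raised and 4 lowered by IL-6 against unstimulated. Those 4 were the FOSB calls given above and add no further result. Over all tested peaks 7 were lowered (0.00172%). The median difference in the OSM set was 0.13, against -0.01 over all tested peaks. At an unadjusted p-value under 0.05 this set had 365 peaks higher (9.14%) and 84 lower (2.10%), against 2.72% and 2.76% of all tested peaks. The median level over IL-17A was 0.33, 0.44 and 0.40 in IL-6 libraries, 0.30 in replicate 4, 0.31, 0.30, 0.25 and 0.19 in unstimulated libraries, and 1.17 to 1.31 in the OSM libraries. The IL-6 libraries lay just above the unstimulated ones and far below OSM, and other cytokines lay at like levels. TNF libraries had 0.45 to 0.53, TGF-β1 0.45 to 0.54, IL-13 0.39 to 0.52, IFNγ 0.40 to 0.44 and IL-22 0.29 to 0.45.

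In the IL-13 set no peak was called for IL-6, and 254 peaks were higher (10.2%) and 31 lower (1.25%) at an unadjusted p-value under 0.05 (median difference 0.16). The median over IL-17A was 0.46, 0.64 and 0.60 in the IL-6 libraries and 0.47, 0.50, 0.41 and 0.24 in the unstimulated ones, so the ranges overlapped. In replicate 4 it was 1.02, next to 1.22 to 1.32 in the IL-13 libraries, a resemblance that was among the reasons for leaving it out. In the TNF set the IL-6 libraries had 0.15, 0.21 and 0.19, replicate 4 had -0.11, and the unstimulated libraries had 0.12 to 0.15. In the IFNγ set the IL-6 libraries had 0.20, 0.25 and 0.20, within or near the unstimulated 0.19 to 0.23. The median differences of these last sets were 0.04 and 0.02, with no call in either, and at an unadjusted p-value under 0.05 the TNF set had 332 peaks higher (5.17%) and 156 lower (2.43%), the IFNγ set 187 (3.67%) and 132 (2.59%).

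**Figure D5:**
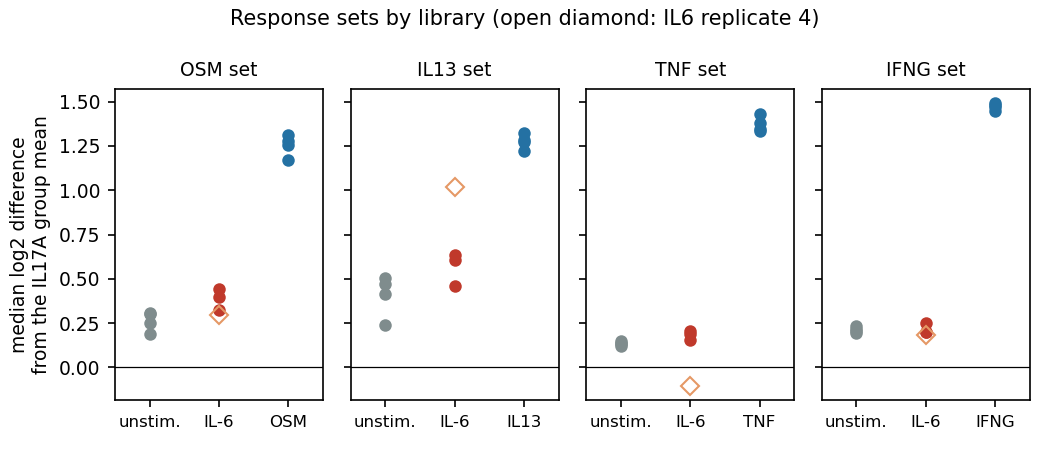
Median log2 difference from the IL-17A group mean (vertical axis) over the peaks of each response set, 1 point per library, for unstimulated, IL-6 and the cytokine that chose the set. IL-6 replicates 1 to 3 lie near the unstimulated libraries in all 4 sets, and the open diamond, replicate 4, lies at 1.02 in the IL-13 set.

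Single peaks of the sets showed the same levels. In the OSM set the largest differences were at ABRA, WWC1 and SOCS3. At that SOCS3 peak the mean was 25.5 with OSM, 1.86 ± 0.454 with IL-6 (n = 3), 1.79 ± 0.476 unstimulated (SD, n = 4) and 4.06 in replicate 4. At ABRA, a gene of actin and SRF signalling, it was 19.8 with OSM, 2.73 with IL-6 and 2.68 without, and at WWC1, a Hippo pathway scaffold, 8.03, 1.48 and 1.30. In the IL-13 set, the peak at IRF2 had 22.8 with IL-13, 3.18 with IL-6, 1.67 without and 26.3 in replicate 4. The peaks at LINC02458 and TMEM209 had 0.734 and 0.848 with IL-6, 0.683 and 0.951 without, and 5.62 and 7.06 in replicate 4. The library labelled IL6 replicate 4 thus stood with the IL-13 mean (8.80 and 6.07) at both.

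The TNF set was led by 2 peaks at CXCL8 and 1 at PPARD. The CXCL8 peaks had 19.4 and 17.2 with TNF, 0.218 and 0.166 with IL-6 and 0.380 and 0.0748 without. PPARD, a fatty acid receptor of the nucleus, had 26.9 with TNF, 1.40 with IL-6 and 1.22 without. The IFNγ set was led by FAR2, LGALS17A and IRF1. IRF1, the interferon-induced transcription factor, had 42.1 with IFNγ, 1.46 with IL-6 and 1.96 without, FAR2 had 21.1, 0.715 and 0.571, and LGALS17A 31.9, 1.03 and 1.21. None of these peaks was called for IL-6.

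Over all peaks, the likeness of IL-6 libraries to each other and to unstimulated libraries overlapped in range. Pearson's r of log2 levels across peaks, which share libraries and depth, was 0.874 to 0.901 among IL6 replicates 1 to 3, 0.854 to 0.896 between them and the unstimulated libraries, and 0.850 to 0.873 among the unstimulated libraries. Replicate 1 lay nearest to the unstimulated group mean (root mean square log2 distance 0.540). Replicates 2 and 3 lay nearest to the IL-22 mean (0.450 and 0.541), with the unstimulated mean next (0.451 and 0.548). The distance of each to the mean of the other 2 IL-6 libraries, which averages fewer libraries, was 0.564, 0.494 and 0.562.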

How the data were processed

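The deposited table gives a signal per peak, the read coverage summed over 407383 peaks of 500 bases in 44 libraries. For bulk libraries the study's methods give the ENCODE ATAC-seq pipeline and MACS2 on hg38, with peaks of variable length. They describe peaks of a fixed 500 bases for the study's single-cell ATAC-seq. Which data gave the peaks of the deposited table is not said there. The sums are unscaled and are not counts, and depth enters through them (the most frequent low value was 75, taken as 1 read). Coverage was divided by the library total in Mb and by a trimmed-mean factor (30% of ratios and 5% of means trimmed), and log2(coverage per Mb + 0.5) was fitted with limma 3.58.1 (R 4.3.3) by group over 43 libraries, with trended variances. The spread was thus shared by all groups. Peaks with a log2 mean of -3 or lower were dropped (220). Tests were two-sided with Benjamini-Hochberg adjustment over 407163 peaks. Starts and UTRs came from GENCODE v44. Named peaks were all calls, the next 4, start-site peaks of listed genes (all of the signalling and feedback lists, the 3 lowest p-values of others) and the top 3 of each response set. The members and lists were chosen with earlier results of these data known. Some items that this rule names are not reported here.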

Additional observations from a re-analysis of the deposited data

Results flagged for a closer look

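Of 56 checks for a sample far from the other 3 of its labelled group of 4, which chance passes about 1 time in 20, 4 stood out, all of them the library labelled IL6 replicate 4. Its deviation at peaks of at least 70% GC was -0.0393, against 0.0628 to 0.0769 in replicates 1 to 3. Its mean over the 8 FOSB peaks was 2.92 per Mb, against 1.87 to 1.99, and at the FOSB peak of 7.3 kb it had 4.21, against 0.892 to 1.19. Those peaks were called for low levels in replicates 1 to 3 in a fit without replicate 4, so the distance of replicate 4 there is a description and supports nothing. Its median over the TNF set was -0.105, against 0.154 to 0.205. The part of its low depth in these values was not tested.

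The library also had a signal outside the comparison. Its median over the IL-13 set was 1.02, above the unstimulated range of 0.241 to 0.504. Its likeness to IL-13 was among the values on which it was left out, so this is no independent support.

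The effect of IL-6 differed from that of OSM at 6 lowered peaks, by the direct limma contrast of the 2 groups, in which the IL-6 libraries are those that gave the lowered calls. At the FOSB peaks of 2.4, 4.8, 5.5 and 7.3 kb the log2 differences between IL-6 and OSM were -2.07, -2.99, -3.51 and -3.90. They were -1.83 at FOS and -1.31 at NR4A1. Against unstimulated, OSM had 1.09, 1.56, 1.93 and 2.34 at the FOSB peaks, 0.86 at FOS and 0.04 at NR4A1, while IL-6 was negative at all 6.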

How the results depend on the processing

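Over 15 settings, the number of peaks called between IL-6 and unstimulated ran from 0 to 267, and 7 settings kept it within 1.5 times the main 20. It was 267 with IL6 replicate 4 kept, 129 with library quality weights, 96 with the 2 groups alone, 13 with a pseudocount of 2, 12 with a minimum mean of 1 per Mb, 9 with a pseudocount of 0.1 and 0 with GC centring. Leaving out 1 library gave 0 to 19. Against OSM the count was 6922 in the main fit, 14318 with replicate 4 kept, 15803 with the 2 groups alone, 16574 with quality weights and 11505 with GC centring, and leaving out 1 library gave 3481 to 5895. Without IL6 replicates 1 or 3 it was 3481 or 3947, and without OSM replicates 1 or 2 it was 4544 or 4557. The causes were not tested.

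The correlations of same-numbered IL-6 and unstimulated deviations were -0.0054, 0.0031 and 0.0033. They ran over all tested peaks, whose median level was 0.773 per Mb. At so low a level noise between libraries can hide a shared part, so these values cannot exclude a pairing by replicate number. A replicate block called 14 peaks against unstimulated and 7401 against OSM. The replicate block with GC centring called 2 and 12691. Neither says that an effect was weaker.

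All 20 calls kept their sign in all 22 settings, and no named peak with a call in any setting reversed. The groups did not overlap at any of the 20 in the main fit, so most settings could hardly change a sign. With IL6 replicate 4 kept, the median over the IL-13 set rose from 0.16 to 0.26, and that over the TNF set went from 0.04 to -0.04. The FOSB peak at 5.5 kb rested on 3.72, 11.2 and 2.15 reads in the IL-6 libraries.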
